A study of Mus musculus with 38 samples.

Results

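Lung metastases were compared with tumor cells that had disseminated to the lung in the MMTV-PyMT hyperplasia transplant model. The comparison comprised all 5 samples titled metastases and all 6 samples titled disseminated cells, which together made up 11 of the 38 arrays in the series. Both groups started from hyperplasias of female mice that carried a pair of transgenes. In MMTV-PyMT, the promoter of mouse mammary tumor virus drives the polyoma virus middle T oncogene in mammary epithelium, and in actin-GFP, an actin promoter drives green fluorescent protein broadly. The hyperplasias were transplanted into cleared mammary fat pads of female FVB/n mice, which carry no GFP, and GFP-positive cells were recovered by cell sorting. Disseminated cells came from lungs of mice that still bore late carcinoma outgrowths, with the lungs of several mice pooled for each sample. Metastases came from lungs of mice whose primary tumor had been removed surgically, and they were collected weeks later at the first signs of respiratory distress. The groups therefore differed also in the presence of a primary tumor, in surgery, in the age of the graft and in pooling. The actin promoter is active in most cell types, so GFP was used to mark donor origin and does not single out epithelial cells. Several genes of lung-resident and blood cells were above the primary tumors in these samples, as given below. Whether the sorted samples also held host cells was not tested. Carcinoma (6 samples) and adenoma (5 samples), the sorted primary tumors of late and early outgrowths, were profiled alongside. RNA was amplified in 2 rounds, labeled with Cy5 and hybridized to Agilent two-color arrays. Universal mouse reference RNA in Cy3 was the other channel on every array, and dyes were never swapped. Every level below is a log2 ratio of sample to that reference on the normalized scale, and every change is metastases minus disseminated cells. Nothing in the labels says which samples came from separate mice, so the p-values measure only the spread between samples. In the gene tests (limma) that spread was pooled over all 4 groups, primary tumors included.

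Disseminated tumor cells are cells that have left the primary tumor and lodged in a distant organ, mostly singly and often without dividing, whereas a metastasis is a growing colony with its own stroma, vessels and immune cells. Mouse lung is rich in alveolar macrophages, in marginated neutrophils and in patrolling monocytes, and tumor cells in lung capillaries lie close to all of them. Type I and type II interferons induce antiviral and antigen-presenting genes in most cell types, and low oxygen induces glycolytic enzymes through hypoxia-inducible factors.

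The labels were first checked against defining markers. Luminal mammary markers (20 genes, among them Epcam, Krt8 and Krt18) had a mean level of 2.76, 3.22, 2.41, 0.43 and 2.77 in metastases 1 to 5. In disseminated cells the lowest mean was 0.30, the median 1.34 and the highest 2.47. Metastases 4 and disseminated cells 3 and 5, at 0.43, 0.30 and 0.47, thus had far lower epithelial marker levels than carcinoma (1.75 to 3.02) or adenoma (2.26 to 2.79). They were the 3 lowest samples but not the only low ones, as the median of disseminated cells was also below every carcinoma. Macrophage markers (16 genes, among them Adgre1, Cd68 and Csf1r) were far above the primary tumors in all disseminated samples (3.10 to 4.60, against 0.05 to 0.54 in adenoma) and in metastases 1, 3 and 4 (3.25, 3.93 and 4.63), but not in metastases 2 and 5 (0.57 and 1.13). A single carcinoma, replicate 6, had a macrophage mean of 4.60, while the other carcinomas lay at 0.84 or below. Between samples of 1 group, the correlation across genes was 0.713 to 0.941 in metastases and 0.671 to 0.937 in disseminated cells, and between groups it was 0.535 to 0.929. Disseminated cells 6 correlated better with metastases (median 0.873) than with the other disseminated samples (median 0.714), and disseminated cells 1 (0.866 against 0.853) and metastases 4 (0.790 with the other group against 0.775 with its own) did so narrowly. Main counts below are therefore also given without some of these samples.

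**Figure D1:**
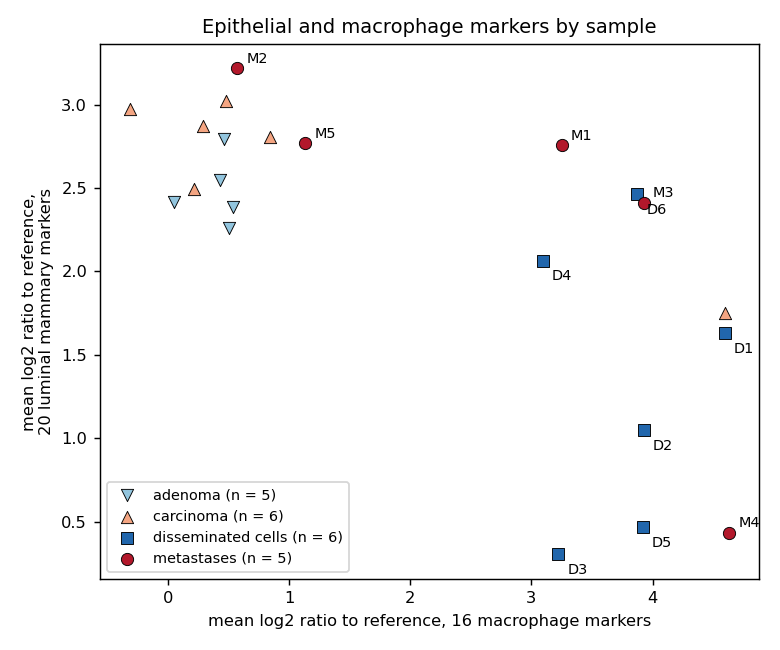
Mean log2 ratio to the reference of 20 luminal mammary markers (vertical axis) against that of 16 macrophage markers (horizontal axis) in the 22 progression samples, with metastases labeled M1 to M5 and disseminated cells D1 to D6. M4, D3 and D5 lie lowest on the luminal axis at 0.43, 0.30 and 0.47, and M2 and M5 lie near the primary tumors on the macrophage axis at 0.57 and 1.13.

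The sample channel was well above background at 74.7 ± 3.15% of spots in metastases (SD, n = 5) and 70.5 ± 4.49% in disseminated cells (SD, n = 6; two-sided exact permutation test p = 0.113, 0.281 after Benjamini-Hochberg adjustment over 5 array measures). The median signal of that channel was 590 ± 84.3 in metastases and 333 ± 148 in disseminated cells (exact permutation p = 0.00866, adjusted 0.0433). Metastases were hybridized on slides 6 to 8 together with carcinoma and scanned on 1 day, whereas disseminated cells shared slides 9 to 11 and another scan day with adenoma. Slides, scan day and group can therefore not be told apart in this comparison. The change from adenoma to carcinoma, which ran over the same pair of scan days with other samples, is given beside the results. The difference between the 2 changes was tested in the same fit, and 1.59% of all genes were called.

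Of 27674 genes tested, 1999 differed between metastases and disseminated cells (limma, at least 2-fold with a Benjamini-Hochberg adjusted p below 0.05), or 7.22%. Of these, 962 (3.48%) were higher and 1037 (3.75%) lower in metastases. These shares are the background for each list count below, and no list was tested against them. At the 4-fold level the split was uneven, with 85 genes higher and 228 lower. The median change over all genes was 0.01, and 27.1% of genes had an unadjusted p below 0.05. Groups did not overlap for 546 of the called genes, and for 4.22% of all genes. The count depended on single samples, at 1327 without disseminated cells 3 and 3085 without disseminated cells 6. It was 1365 without the 3 samples lowest in luminal markers and 1252 without metastases 2 and 5, and of the 1999 genes 1143 and 1080 were still called. With only the 11 samples in the fit, so that the primary tumors no longer contributed to the estimate of spread, 707 genes were called, and all 707 were among the 1999.

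Several of the genes that fell most in metastases are known from circulating or lung-resident leukocytes. The 10 largest falls were taken among genes with no overlap between groups and bright unsaturated spots on all 11 arrays. Other bright probes of a gene, where present, had to move the same way at the median, by any amount. The genes were Plac8, Pigt, Treml4, Nfe2, Ear10, Arhgdib, Cyfip2, Itgal, Msrb1 and Rnase6, at log2 changes from -4.11 to -3.04. The absence of overlap was a condition for naming them and is no separate result.

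Plac8, a small cysteine-rich protein abundant in myeloid cells, had levels of 0.24, -2.69, -0.11, -0.52 and -0.47 in metastases 1 to 5. In disseminated cells the lowest level was 0.33, the median 3.36 and the highest 5.80. The lowest disseminated sample lay just above the highest metastasis, and the change was -4.11 ± 0.84 (SE; limma adjusted p = 0.00346). Treml4, a Trem-family receptor of patrolling monocytes and some macrophages, had levels of 4.86, 1.01, 3.01, 2.88 and 4.28 in metastases and 5.09, 7.12 and 7.83 (lowest, median, highest) in disseminated cells. Its change of -3.62 ± 0.80 (adjusted p = 0.00538) compared with 0.99 from adenoma to carcinoma. Nfe2, a transcription factor of the megakaryocyte and erythroid lineages, had levels of 0.48, -0.63, -0.33, 0.33 and 0.49 in metastases. In disseminated cells it ranged from 1.05 to 5.23 around a median of 4.01, and the change was -3.56 ± 0.56 (adjusted p = 0.00058).

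Ear10, an eosinophil-associated ribonuclease, had levels of 3.38, 2.10, 4.28, 4.94 and 2.54 in metastases and 5.91, 6.86 and 7.18 (lowest, median, highest) in disseminated cells. Both groups were far above carcinoma (mean 0.34) and adenoma (mean 0.05), so the fall of -3.30 ± 0.39 (adjusted p = 6.46e-05) was a fall from a high level to a lower one. Its probe is listed on an unplaced sequence (build mm7, Un_random, 1802208 to 1802267), and the Ear genes are near-identical copies that 1 probe may not tell apart. With the scanner software's processed signals, Ear10 was not called (adjusted p = 0.856). Itgal, the alpha subunit of the leukocyte integrin LFA-1, had levels of 1.52, -1.27, 1.22, 2.30 and 0.38 in metastases. It ranged from 3.01 to 5.23 (median 3.52) in disseminated cells, a change of -3.12 ± 0.68 (adjusted p = 0.00492). Arhgdib, a regulator of small GTPases in blood cells, and Cyfip2, a subunit of the WAVE actin regulator, fell by 3.22 and 3.14. Rnase6, an antimicrobial ribonuclease of phagocytes, fell by 3.04 and was not called in 7 of 31 alternative analyses.

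Msrb1, a selenoprotein that repairs oxidized methionine, had levels of -0.31, -1.46, -0.86, -1.09 and -0.28 in metastases against 0.91, 2.38 and 3.60 (lowest, median, highest) in disseminated cells. It was the only 1 of these 20 genes that was called in all 31 alternative analyses (change -3.12 ± 0.32, adjusted p = 3.72e-05). Pigt, a subunit of the enzyme that attaches glycosylphosphatidylinositol anchors, had levels of -4.68, -4.86, -5.06, -5.12 and -3.06 in metastases and -2.80, -0.27 and 1.15 in disseminated cells, a change of -4.02 ± 0.60 (adjusted p = 0.00041). The change from adenoma to carcinoma was -4.18, and the array file lists this probe on chromosome 17 although RefSeq places the gene on chromosome 2.

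**Figure D2:**
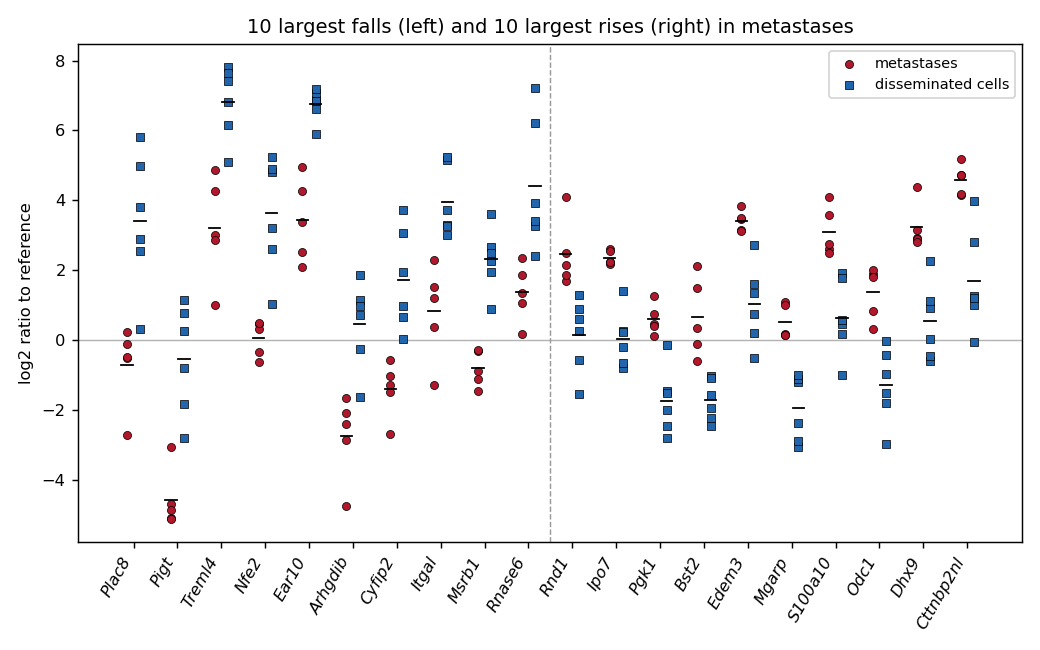
Log2 ratio to the reference in each metastasis (circles, n = 5) and each sample of disseminated cells (squares, n = 6) for the 10 genes with the largest falls and the 10 with the largest rises, with group means as short lines. Falls reached -4.11 (Plac8) and rises 2.89 (Cttnbp2nl); genes were chosen so that the groups do not overlap.

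Monocyte markers were lower in metastases. Of 16 measured genes 9 fell, against a background of 3.75% of genes lower, and none rose. Of the 9, 5 were also called lower in the test of the difference from the change of adenoma to carcinoma. The median change was -2.08, against 0.01 over all genes. The mean of the list was 1.20, -0.20, 1.07, 1.05 and 0.81 in metastases 1 to 5. In disseminated cells it was 1.59 at the lowest, 2.77 at the median and 3.90 at the highest, so that the groups did not overlap. The largest fall was that of Plac8, given above, which is not particular to patrolling monocytes. Genes of patrolling monocytes were also among the fallers, with Treml4 above, Spn (CD43) at -3.52 and Adgre4, an adhesion receptor of myeloid cells, at -3.45. Adgre4 had levels of 1.59, 0.32, 1.43, 1.45 and 1.33 in metastases and 3.64, 4.16 and 6.27 in disseminated cells, and was called in all 31 alternatives (adjusted p = 9.49e-05). Ccr2, the receptor that brings inflammatory monocytes into tissue, had a change of -1.23 and was not called. In bulk samples, fewer cells of a type and less RNA per cell cannot be told apart. The count was 8 to 11 with each sample left out in turn, and 7 without the 3 samples lowest in luminal markers.

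Neutrophil genes were also lower. Of 16 measured genes 9 fell (56.25%, against 3.75% of all genes) and none rose, with a median change of -2.24. Of the 9, 4 were also called lower in the test of the difference from the change of adenoma to carcinoma. List means were 3.79, 1.97, 2.64, 2.49 and 3.55 in metastases and 3.20 to 5.35 (median 4.64) in disseminated cells, where disseminated cells 6 was the lowest and overlapped the metastases. The calprotectin subunit S100a8 had levels of 5.08, 3.75, 4.03, 1.06 and 4.58 in metastases. Its levels in disseminated cells were 3.99 at the lowest, 7.28 at the median and 8.24 at the highest, a change of -3.11 ± 0.67 (adjusted p = 0.00489). Its partner S100a9 fell by 2.64 (adjusted p = 0.0451), the resistin-like Retnlg by 3.24 (adjusted p = 0.0163) and Csf3r, the receptor for granulocyte colony-stimulating factor, by 2.66 (adjusted p = 0.00383). S100a9 was not called in 18 of 31 alternative settings (adjusted p up to 0.270), and Csf3r was not called with the scanner's processed signals, where its change was -0.12 (adjusted p = 0.946). S100a9 was high in metastases 1 and 5 (7.99 and 8.03) and within the range of disseminated cells there, but lower in metastases 2, 3 and 4 (4.42, 4.99 and 3.59). Mmp8 and Mmp9, collagenase and gelatinase of neutrophil granules, fell by 2.47 and 2.31, and the call of Mmp9 was lost in 19 of the 31 alternatives (adjusted p up to 0.203). The granule enzyme genes of neutrophil precursors were not called, with Mpo at -0.46 and Elane at -0.16. The neutrophil count dropped to 4 without metastases 2 or without metastases 3 and to 5 without disseminated cells 2 or 3. It was 3 without the 3 samples lowest in luminal markers, 2 with only the 2 groups in the fit and 11 without disseminated cells 6.

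Macrophage markers varied among the metastases. None of the 16 genes was called in limma, and 4 had an unadjusted p below 0.05, although all 16 changes were negative (median -1.11). The list mean was 3.25, 0.57, 3.93, 4.63 and 1.13 in metastases 1 to 5 and 3.10 to 4.60 in disseminated cells, so that metastases 1 and 3 lay within the range of disseminated cells, metastases 4 just above it and metastases 2 and 5 far below it. Adgre1, which encodes F4/80, had levels of 2.04, -1.36, 3.32, 4.77 and -1.08 in metastases against 2.31, 3.15 and 3.49 in disseminated cells (change -1.44 ± 1.04, adjusted p = 0.41). Without metastases 2 and 5 the median change of the list was 0.34. In that alternative 7 monocyte and 7 neutrophil genes were called lower, with medians of -1.61 and -1.98, and with the macrophage mean as a covariate 9 and 7 were. Without metastases 4, in contrast, 4 macrophage genes were called lower.

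Genes of alveolar macrophages, the resident phagocytes of the airspace, fell in 7 of 16 cases (43.75%, against 3.75% of all genes) with none rising (median -1.24). Pparg, the nuclear receptor that drives their development, had levels of -1.05, -1.73, -0.63, 0.67 and -1.22 in metastases. In disseminated cells it had -0.03, 1.91 and 2.87 (lowest, median, highest), so that metastases 4 alone reached into their range (change -2.51 ± 0.44, adjusted p = 0.00109). The fatty acid-binding protein Fabp1 fell by 2.41, the sterol transporter Abcg1 by 1.93 and lipoprotein lipase (Lpl) by 1.83. Chil3, a chitinase-like protein that is among the most abundant of these cells, was above the reference in all 11 samples. It had levels of 6.28, 2.80, 9.19, 9.76 and 5.77 in metastases and 4.99 to 10.55 in disseminated cells, and its change of -1.04 ± 1.02 did not pass the test (adjusted p = 0.563). Of the 7 alveolar macrophage genes that fell, 2 were also called in the test of the difference from the change of adenoma to carcinoma. Without metastases 2 and 5, 4 alveolar macrophage genes were called, and with only the 2 groups in the fit also 4. Of 17 myeloid lectin and Trem receptors 4 fell (23.5%, against 3.75% of all genes), namely Fcer1g, Trem3, Cd300ld and Clec4a2, and the median was -1.84. That count was 2 without metastases 2 or 5 or without disseminated cells 1, 2, 3 or 5.

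**Figure D3:**
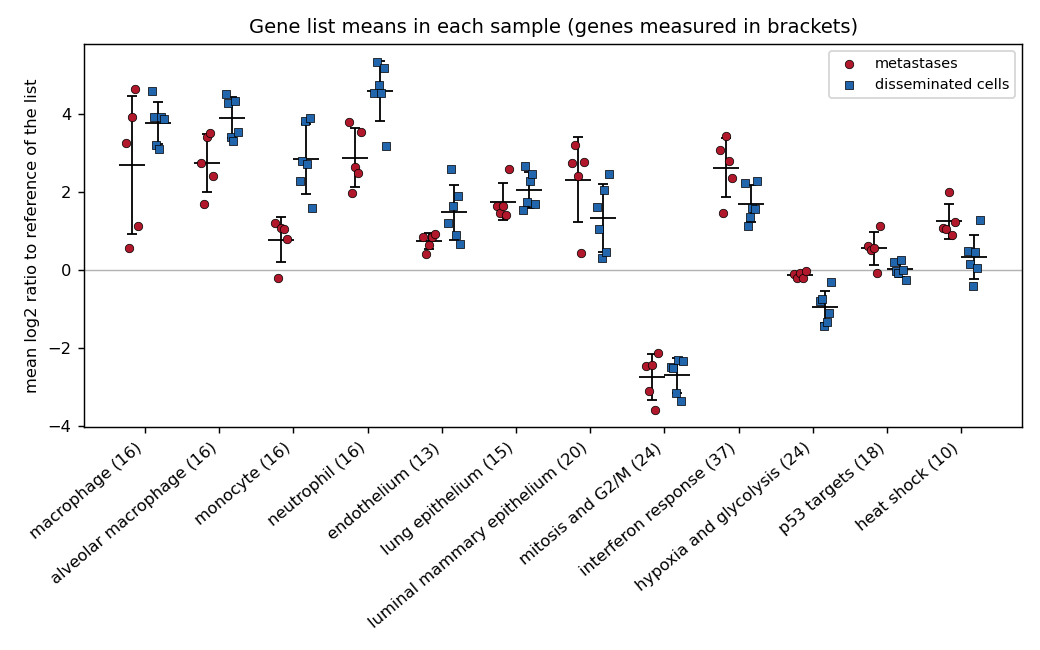
Mean log2 ratio to the reference of 12 gene lists in each metastasis (circles, n = 5) and each sample of disseminated cells (squares, n = 6), with group mean and SD as black bars. The groups do not overlap for monocyte genes and for hypoxia and glycolysis genes, and they overlap for the others.

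Calls among other lung and blood cell markers were all in the lower direction. Over all genes 3.75% were called lower, and these short lists were not tested against that share. Hemoglobin alpha (Hba-a1) had levels of 2.05, 1.71, 1.72, 2.00 and 2.59 in metastases against 3.32, 4.20 and 5.30 in disseminated cells, a fall of 2.22 (adjusted p = 0.000452), and was called in all 31 alternatives. The heme synthesis enzyme Alas2 fell by 1.87. The platelet chemokine Ppbp fell by 2.44, the only 1 of 9 platelet genes called. Of 13 endothelial genes 3 fell, with the junctional cadherin Cdh5 at -1.63, Vwf at -1.58 and Esam at -1.06. The calls of Vwf and Esam were lost in 12 of 31 alternatives each, and 1 endothelial gene was called without metastases 2 or 3 or without disseminated cells 2. Of 18 T and NK cell genes the cytotoxic granule genes Nkg7 (-2.03) and Gzmb (-1.74) fell. In the lung epithelial list 2 of 15 genes fell, surfactant protein D (Sftpd) at -2.16 and the club cell gene Scgb3a2 at -2.02, while Sftpc had a change of 0.28 and was not called. The calls of Sftpd and Scgb3a2 were lost in 15 and 12 of 31 alternatives. The count in this list was 0 without any 1 of metastases 1 to 4 or of disseminated cells 2 to 5 and 0 with only the 2 groups in the fit, but 4 without metastases 5. Lung epithelial genes as a list were at 1.43 to 2.59 in metastases and 1.55 to 2.66 in disseminated cells, above adenoma at 0.83 to 1.25. Carcinoma was at 1.09 to 1.47, which reached into the range of metastases but not that of disseminated cells. Col1a1, the main fibrillar collagen of fibroblasts, fell by 1.58 and was below the reference in all 11 samples, but its call was lost in 18 of 31 alternatives (adjusted p up to 0.221). No dendritic, B cell, mast cell or milk protein gene was called in limma. Of 10, 10, 10 and 11 genes, 0, 3, 3 and 1 had an unadjusted p below 0.05.

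Luminal mammary genes were higher at the median (1.06), but only Krt19 was called among 20. Krt19 had levels of 0.72, 4.66, 1.83, -1.26 and 1.55 in metastases and -3.30, -0.73 and 1.47 in disseminated cells, a rise of 2.45 ± 0.78 (adjusted p = 0.0428) that was lost in 15 of 31 alternatives. Epcam had levels of 5.05, 6.45, 3.68, 0.39 and 3.68 in metastases against -0.46, 0.99 and 5.45 in disseminated cells (2.39 ± 0.92, adjusted p = 0.0924). Without metastases 4, 11 luminal genes were called higher, and without disseminated cells 6, 6 were. Without disseminated cells 3 and 5, none was. The part of the marker levels in the other results was not tested beyond the samples left out and the macrophage covariate.

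The genes that rose most in metastases had varied functions. The 10 largest rises under the same conditions were Cttnbp2nl, Dhx9, Odc1, S100a10, Mgarp, Edem3, Bst2, Pgk1, Ipo7 and Rnd1, at log2 changes from 2.89 to 2.30. Cttnbp2nl had levels of 4.73, 5.19, 4.15, 4.74 and 4.18 in metastases. It had -0.04, 1.24 and 3.97 in disseminated cells, a rise of 2.89 ± 0.49 (adjusted p = 0.00097), against 0.30 from adenoma to carcinoma. Dhx9, an RNA helicase, had levels of 3.14, 2.93, 2.89, 2.81 and 4.40 in metastases and -0.59, 0.48 and 2.28 in disseminated cells (2.68 ± 0.40, adjusted p = 0.000399). For both genes the spread was wider in disseminated cells (SD 1.44 and 1.10) than in metastases (SD 0.43 and 0.66). Ipo7, a nuclear import receptor, had 2.24, 2.19, 2.62, 2.24 and 2.55 in metastases (SD 0.20) against -0.78, 0.02 and 1.40 in disseminated cells (2.32 ± 0.28, adjusted p = 6.46e-05). With the mean of its probes the change was 0.76, under 2-fold, and Ipo7 was not called. Edem3, which marks misfolded glycoproteins for degradation, rose by 2.39, the annexin partner S100a10 by 2.46, the mitochondrial protein Mgarp by 2.44 and the small GTPase Rnd1 by 2.30.

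Odc1, the rate-limiting enzyme of polyamine synthesis, had levels of 1.89, 0.33, 2.00, 1.81 and 0.85 in metastases and -2.95, -1.24 and -0.02 in disseminated cells, a rise of 2.66 ± 0.53 (adjusted p = 0.0027) that its other bright probes followed at a median of 1.26. Myc, a known activator of Odc1, went the other way. It had levels of -1.60, -1.58, -2.61, -3.13 and -1.91 in metastases against -1.82, -0.96 and -0.11 in disseminated cells (-1.22 ± 0.34, adjusted p = 0.023), and it also fell from adenoma to carcinoma, by 1.99. These were the only 2 of 19 genes of Myc, polyamines and ribosome biogenesis that were called, and the median of the list was -0.03.

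Interferon-response genes were higher in metastases. Of 37 measured genes 13 rose (35.1%, against 3.48% of all genes) and none fell, and 33 of the 37 changes were positive (median 0.94). List means were 3.06, 1.48, 3.45, 2.79 and 2.37 in metastases and 1.13, 1.59 and 2.29 (lowest, median, highest) in disseminated cells, so that metastases 2 alone lay within the range of disseminated cells. The 5 largest rises were those of Ifit2, an antiviral protein that binds foreign RNA (2.65 ± 0.76, adjusted p = 0.0259), Rsad2 (viperin), Irf7, Bst2 (tetherin) and the ubiquitin-like Isg15. Irf7, the transcription factor that amplifies type I interferon production, had levels of 3.43, 2.94, 3.27, 2.57 and 2.51 in metastases. In disseminated cells it had -1.13, 0.21 and 2.66, where only the highest sample reached the metastases (2.57 ± 0.54, adjusted p = 0.00409). Bst2, which holds budding viruses at the cell surface, had levels of 0.37, -0.58, 1.49, -0.12 and 2.14 in metastases and -2.46, -1.75 and -1.02 in disseminated cells (2.38 ± 0.48, adjusted p = 0.00294). Isg15 had levels of 3.12, 2.09, 4.06, 5.48 and 2.00 against 0.55, 0.99 and 1.79, and the groups did not overlap (2.28 ± 0.55, adjusted p = 0.00987). Rsad2 had levels of 6.66, 4.45, 7.78, 8.07 and 3.78 against 2.34, 3.73 and 4.56, with metastases 2 and 5 inside the range of disseminated cells (2.61 ± 0.79, adjusted p = 0.0343). The peptide transporter Tap1, the guanylate-binding Gbp3 and the Isg15 protease Usp18 rose by 1.91, 1.80 and 1.87.

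Other interferon genes were not called. The chemokine Cxcl9, induced by type II interferon, had a change of -1.62 (adjusted p = 0.0953), Ubd of -1.31 and Cxcl10 of 0.30. From adenoma to carcinoma the same list had 17 genes lower and none higher and a median of -1.56. List means were 2.37 to 3.21 in adenoma and 0.54 to 2.05 in carcinoma, so that the median of metastases (2.79) lay near that of adenoma (2.53), and the median of disseminated cells (1.59) lay between those of carcinoma (1.10) and adenoma. The difference between the 2 changes was called for 17 of the 37 genes, all with a higher value for metastases against disseminated cells, and 1.59% of all genes were called in that test. Of the 17, 8, among them Gbp3, Ifit2 and Bst2, were also called in metastases against disseminated cells. The count of 13 was 8 without metastases 3, 6 without disseminated cells 3 and 5, 5 without these and metastases 4, 6 with only the 2 groups in the fit and 17 with the macrophage mean as a covariate. Leaving out metastases 1 gave 2 genes lower, and leaving out metastases 2 gave the highest count of 15.

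The promoters of 3 interferon-response genes that rose are shown because the genes moved together and each holds the core of an interferon-stimulated response element, with the match in capitals. The windows are 300 bases long and span the start of the gene (RefSeq, GRCm38.p6). The motif searched was GAAA followed after any 2 bases by GAAA, on both strands, and overlapping matches were merged.
Rsad2 (chr12:26456403-26456702, minus strand): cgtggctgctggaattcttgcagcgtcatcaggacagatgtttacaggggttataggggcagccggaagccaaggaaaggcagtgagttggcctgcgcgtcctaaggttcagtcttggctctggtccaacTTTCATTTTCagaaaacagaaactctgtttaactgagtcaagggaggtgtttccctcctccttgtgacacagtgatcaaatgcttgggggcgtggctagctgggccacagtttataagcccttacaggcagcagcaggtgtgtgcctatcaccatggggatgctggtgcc
Bst2 (chr8:71537423-71537722, minus strand): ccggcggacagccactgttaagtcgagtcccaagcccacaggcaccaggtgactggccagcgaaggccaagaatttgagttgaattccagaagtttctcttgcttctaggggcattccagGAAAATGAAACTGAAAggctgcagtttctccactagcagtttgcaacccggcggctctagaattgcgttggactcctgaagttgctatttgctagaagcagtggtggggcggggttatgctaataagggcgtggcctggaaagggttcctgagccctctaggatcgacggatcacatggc
Isg15 (chr4:156200769-156201068, minus strand): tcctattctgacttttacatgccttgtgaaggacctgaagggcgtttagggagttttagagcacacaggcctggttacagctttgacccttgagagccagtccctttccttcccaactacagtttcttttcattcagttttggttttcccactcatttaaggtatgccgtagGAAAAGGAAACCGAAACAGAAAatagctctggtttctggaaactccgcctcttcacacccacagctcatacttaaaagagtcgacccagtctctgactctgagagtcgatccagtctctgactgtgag
Of the 13 genes that rose, 11 had a promoter in the table and 7 of these held the motif (Rsad2, Bst2, Isg15, Gbp3, Irgm2, Ifit3 and Oas1a). It occurred in 3.99% of all 27025 genes with a promoter. The list was made of known interferon-response genes, and the share among its members that did not rise was not computed. The count therefore says nothing particular about the genes that rose. No match was found for Ifit2, Irf7, Tap1 and Irf1 in these windows. A match is a description of letters and was not tested for binding.

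**Figure D4:**
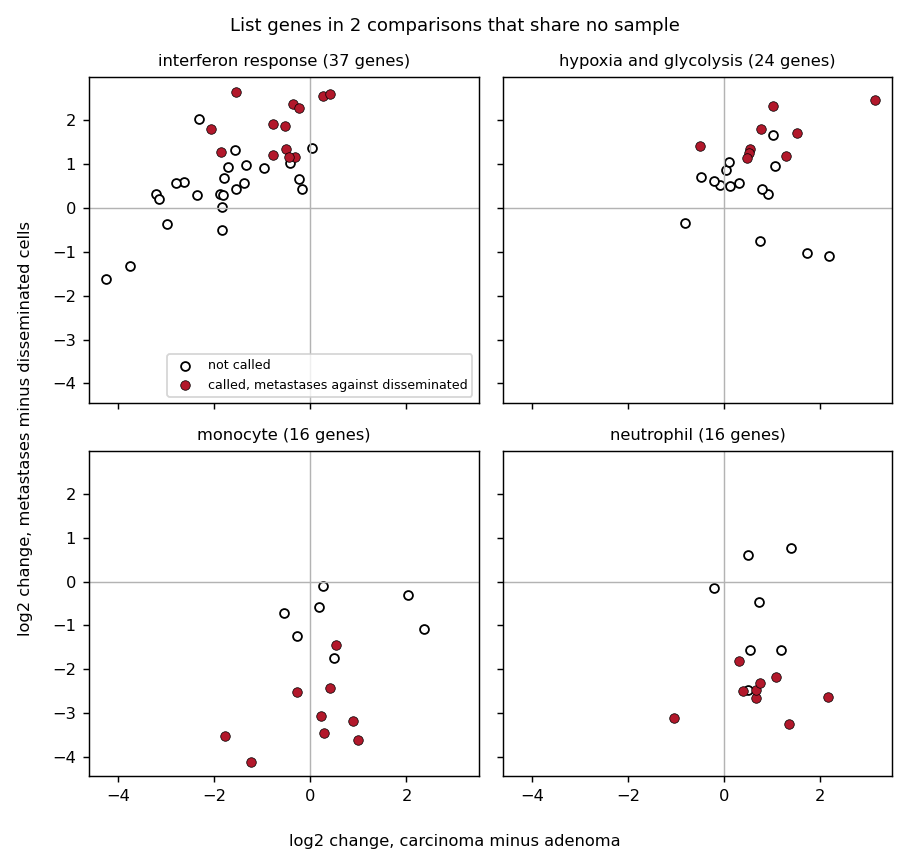
Log2 change of metastases minus disseminated cells (vertical axis) against that of carcinoma minus adenoma (horizontal axis, other samples on the same pair of scan days) for the genes of 4 lists, with genes called in the former filled in red. Interferon genes lie mostly in the upper left (medians 0.94 and -1.56), hypoxia and glycolysis genes mostly in the upper right (medians 0.91 and 0.65), and monocyte and neutrophil genes mostly below 0 on the vertical axis (medians -2.08 and -2.24).

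Genes of glycolysis and the hypoxia response rose in 9 of 24 cases (37.5%, against 3.48% of all genes) with none falling. Of the changes, 20 were positive (median 0.91). The list mean was nearly the same in all metastases, at -0.20 to -0.03, and was -1.43, -0.94 and -0.30 (lowest, median, highest) in disseminated cells, with no overlap. Pgk1, phosphoglycerate kinase (build mm7, chrX:101530787-101530846), had levels of 0.12, 0.48, 0.41, 0.76 and 1.27 in metastases against -2.78, -1.75 and -0.14 in disseminated cells. Its rise of 2.33 ± 0.33 (adjusted p = 0.00025) was matched by its other probe at 2.50. Gapdh rose by 1.81 (adjusted p = 0.00303) through a probe that the array file lists on chromosome 1, whereas RefSeq places the gene on chromosome 6. Its other probe gave 1.33. The lactate dehydrogenase gene Ldha rose by 1.27 and hexokinase 1 (Hk1) by 1.36.

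Ddit4, a stress-induced inhibitor of mTOR, had levels of 0.45, -0.12, 0.39, -0.24 and 4.57 in metastases against -2.77, -1.71 and 0.12 in disseminated cells (2.46 ± 0.73, adjusted p = 0.0299), and metastases 5 was far above the other metastases. Adm, the vasodilator adrenomedullin, rose by 1.71, the mitophagy receptor Bnip3 by 1.19 and Pdk1, which limits entry of pyruvate into the citric acid cycle, by 1.15. Vegfa (0.58), the glucose transporter Slc2a1 (0.63), Car9 (0.44) and the lactate exporter Slc16a3 (-1.08) were not called. From adenoma to carcinoma 6 genes of the list were called higher. They were Pgk1, Ddit4, Adm, Bnip3, Ankrd37 and Slc16a3, of which the last pair had changes of -1.02 and -1.08 in metastases against disseminated cells and were called lower in the test of the difference between both changes. Of the 9 genes that rose in metastases, only 1 was also called higher in that test. The count of 9 was 7 to 12 with single samples left out, 3 without disseminated cells 3 and 5, 5 without these and metastases 4, and 2 with only the 2 groups in the fit. The Pgk1 promoter is shown for its hypoxia-response core, ACGTG or GCGTG on either strand, with matches in capitals. It is a short motif, and 46.7% of all genes with a promoter hold it, as did all 8 of the genes of this list that rose and had a promoter.
Pgk1 (chrX:106186850-106187149, plus strand): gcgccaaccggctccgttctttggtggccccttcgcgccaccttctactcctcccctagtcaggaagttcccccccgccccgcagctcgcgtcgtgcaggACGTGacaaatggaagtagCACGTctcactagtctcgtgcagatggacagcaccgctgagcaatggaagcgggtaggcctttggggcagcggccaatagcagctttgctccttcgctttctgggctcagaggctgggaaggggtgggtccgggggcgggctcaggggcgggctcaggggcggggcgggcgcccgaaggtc

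Genes known as p53 targets rose in 5 of 18 cases (27.8%, against 3.48% of all genes) with none falling (median 0.43). Cdkn1a, the cell cycle inhibitor p21, had levels of 3.38, 3.75, 3.13, 4.23 and 4.65 in metastases and 1.47, 1.99 and 2.86 in disseminated cells (1.78 ± 0.37, adjusted p = 0.00353). It was called in all 31 alternatives and also rose from adenoma to carcinoma, by 2.05. Bbc3, the proapoptotic protein Puma, had levels of 1.40, 1.90, 1.60, 1.65 and 2.68 against -0.22, 0.27 and 0.65, without overlap (1.60 ± 0.20, adjusted p = 9.08e-05). Eda2r, Trp53inp1 and Aen rose by 2.10, 1.60 and 1.15, and the calls of Eda2r and Trp53inp1 were lost in 16 and 7 of 31 alternatives. With the mean of its probes, Trp53inp1 had a change of 0.42 (adjusted p = 0.459). In metastases 4, Eda2r (-1.58) and Trp53inp1 (-1.96) were at the level of disseminated cells, unlike in the other 4 metastases. Mdm2 (0.55) and Fas (-1.03) were not called, and Ccng1 passed the p threshold (0.0283) at less than 2-fold (0.87). No gene of this list was called in the test of the difference from the change of adenoma to carcinoma. The count of 5 was 3 without metastases 1 or without metastases 2 and 8 without metastases 4.

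Of 10 heat shock genes 2 rose (20%, against 3.48% of all genes). They were the mitochondrial chaperonin Hspd1 (1.66 ± 0.35, adjusted p = 0.00438) and the constitutive chaperone Hspa8 (1.49 ± 0.36, adjusted p = 0.00918). All 10 changes were positive (median 0.93, against -0.06 from adenoma to carcinoma). The count was 6 without disseminated cells 6, 5 with a replicate block and 0 with only the 2 groups in the fit. Of 20 endoplasmic reticulum and integrated stress genes Atf4 rose by 1.53 and Calr fell by 2.05, although the other bright probe of Calr gave 0.75. Of 20 immediate early genes Atf3 rose by 1.14 and Junb was 2.01-fold lower, just past the 2-fold limit. In the cholesterol and fatty acid list, Acly (1.60) and Fdft1 (1.35) rose of 26 genes, and the median was -0.04. With the mean of the probes of a gene, these changes were 0.80 and 0.21, and neither was called.

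Genes of mitosis differed little between the groups. None of 24 mitosis and G2/M genes was called in limma, and 2 had an unadjusted p below 0.05. The list means were -3.58 to -2.12 in metastases and -3.35 to -2.30 in disseminated cells. Both overlapped carcinoma at -2.83 to -1.99 and lay below adenoma at -1.91 to -1.26. Mki67 had levels of -3.36, -4.44, -3.49, -3.33 and -4.39 in metastases against -3.58, -3.36 and -2.80 in disseminated cells (-0.54 ± 0.30, adjusted p = 0.269). Of 24 DNA replication and G1/S genes, Pola1 rose by 1.02 and Mcm3 fell by 1.06. Of 31 clustered histone genes, which are used mainly in S phase, 6 fell (19.4%, against 3.75% of all genes) and none rose. The median was -0.59, with H2ac18 at -2.20 and H2ac13 at -2.37. None was called in the test of the difference from the change of adenoma to carcinoma. The count of 6 was 3 without metastases 2 or disseminated cells 2 and 11 without metastases 5.

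Ribosomal protein genes moved in both directions, with 6 of 82 higher and 14 lower (24.4% called, against 7.22% of all genes, median -0.24). Rpl13a had levels of 2.13, 2.36, 2.76, 1.20 and 1.68 in metastases against -2.53, -1.37 and 1.67 in disseminated cells, a rise of 3.20 ± 0.58 (adjusted p = 0.00151). Rps25 had levels of -3.17, -3.51, -3.34, -3.51 and -2.79 against -2.05, -0.76 and 0.04, a fall of 2.44 ± 0.28 (adjusted p = 4.46e-05), but its other bright probe gave -0.02. Genes of this family have many processed pseudogenes that probes may not tell apart. Of 71 oxidative phosphorylation genes 18.3% were called, against 7.22% of all genes. In this list 4 rose, among them Ndufb6 (1.88), and 9 fell, among them Cox6b1 (-1.59) and Uqcr10 (-1.49). Without disseminated cells 6 these counts were 9 and 14. Of 4799 genes with at least 2 bright probes, 1177 had a called probe and in 136 every bright probe was called the same way. In 19 genes probes were called in opposite directions, among them Ctnnb1, Ahnak and Rcor1. Rcor1, a subunit of a histone demethylase complex, fell by 2.07 on its brightest probe and rose by 1.35 on the other. Pram1, Lrrc58 and Eif3a, with falls of 2.73, 2.48 and 2.13, and Grpel1, with a rise of 2.15, likewise had other probes at 0.00, 0.12, 0.09 and -1.01.

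The Il6 pathway was examined because the study followed it in disseminated cells. Il6, a cytokine that signals through Jak kinases, had levels of 4.58, 3.24, 5.27, 5.73 and 3.17 in metastases and 3.15, 5.37 and 7.07 (lowest, median, highest) in disseminated cells. The groups overlapped, and the change was -0.64 ± 0.79 (adjusted p = 0.664). The means of metastases and disseminated cells, 4.40 and 5.04, compared with 1.89 in carcinoma and 0.17 in adenoma. Its receptor subunit Il6ra had levels of 0.19, 0.51, 0.06, 0.56 and 0.36 against -0.09, 0.35 and 0.57 (0.03 ± 0.12, adjusted p = 0.897). Prdm1, a transcriptional repressor, had levels of 1.21, -0.70, 1.55, 2.73 and 0.66 against 0.83, 1.52 and 3.19 (-0.79 ± 0.59, adjusted p = 0.426). Elsewhere in the family of 19 genes Il11, a related cytokine, rose by 1.11 (adjusted p = 0.00359), and 3 genes fell (21.1% called, against 7.22% of all genes). Jak1, the kinase that relays these receptors, had levels of 0.02, -0.14, -0.57, 0.05 and -0.16 in metastases against 0.95, 1.48 and 1.98 in disseminated cells. The groups did not overlap, its other probe gave -1.16, and it was called in all 31 alternatives (-1.63 ± 0.18, adjusted p = 4.46e-05). Bcl3 and the kinase Pim1, targets of this pathway, fell by 1.81 and 1.45, and the other probe of Pim1 gave 0.05.

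Histone and arginine methyltransferases were a further interest of the study. Of 36 chromatin regulators 4 rose and 5 fell (25% called, against 7.22% of all genes, median 0.30). None was called in the test of the difference from the change of adenoma to carcinoma. Prmt1, the main arginine methyltransferase, had levels of -4.47, -3.20, -3.56, -2.49 and -1.96 in metastases against -5.62, -5.00 and -4.09 in disseminated cells (1.82 ± 0.34, adjusted p = 0.0018). Ezh2, the catalytic subunit of Polycomb repressive complex 2, rose by 1.30 (adjusted p = 0.00244) and Idh2, a metabolic enzyme in this list, by 1.42. Setd5 had levels of 0.29, -0.28, -0.70, -1.06 and 1.48 against -2.38, -1.55 and 0.05 (1.38 ± 0.41, adjusted p = 0.0297). It rose by 2.20 from adenoma to carcinoma, and its other probes had a median of 0.08. Suv39h2 (0.98, adjusted p = 0.0122), Prmt6 (0.85, adjusted p = 0.00533) and Smyd3 (0.41, adjusted p = 0.0297) passed the p threshold but were under 2-fold. Setd3 (0.31), Prmt3 (0.31), Nsd2 (0.20) and Nsd1 (-0.29) had adjusted p-values of 0.256 or more.

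The 5 regulators that fell were all lysine methyltransferases or their relatives. Setd2, which trimethylates H3K36, had levels of -1.42, -1.42, -2.26, -1.92 and -1.37 in metastases against -0.89, -0.12 and 0.68 in disseminated cells, without overlap (-1.57 ± 0.22, adjusted p = 0.000275), and was called in all 31 alternatives. The H3K4 enzymes Setd1b and Kmt2c fell by 1.70 and 1.82, their relative Kmt2e by 1.01 and the H3K9 enzyme Ehmt2 by 1.08. With the mean of its probes, Kmt2c had a change of -0.48 and was not called. Without disseminated cells 2, 3 or 4 or metastases 1, 3 regulators were called lower. Of the stem cell genes that the study followed, only Smad1 was called. It fell by 1.42 (adjusted p = 0.00438) on its brightest probe, and the other probe gave 1.23. Smad2 and Smad3 had changes of 0.95 (adjusted p = 0.0032) and 1.02 (adjusted p = 0.0626). Sox2, Fzd3 and Xiap had changes of 0.28, 0.17 and -0.34 with adjusted p-values of 0.132, 0.742 and 0.635. Sox2 was well above background in 1 of 5 metastases and 0 of 6 disseminated samples.

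Most of the remaining lists had few or no calls. Of 29 inflammatory cytokines and chemokines only the neutrophil chemokine Cxcl5 was called, at 2.16 (adjusted p = 0.0434), with 2.99 in metastases 2 and -0.78 in metastases 1. H2-Oa was the only 1 of 9 MHC class II genes called (-1.36). Of 13 epithelial-mesenchymal transition genes Tgfb1 alone fell, with levels of -1.04, -1.51, -0.87, 0.42 and -2.28 in metastases and 0.10, 1.28 and 1.94 in disseminated cells (-2.27 ± 0.36, adjusted p = 0.000583). Of 15 cathepsins and their inhibitors Cstb (-2.01), Ctsa (-1.58) and Ctse (-1.49) fell (20%, against 3.75% of all genes). The count was 3 to 4 with single samples left out. No cathepsin was called in the test of the difference from the change of adenoma to carcinoma. Of 25 matrix metalloproteinase and Timp genes Mmp8 and Mmp9, named above, were the only calls, Mmp9 with the limit given there. Acta2 fell by 1.19 of 10 basal mammary genes. Notch (14 genes), Erbb (11) and pluripotency (12) genes had no calls in limma, with 2, 4 and 3 genes at an unadjusted p below 0.05.

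Across all genes, the change from disseminated cells to metastases and that from adenoma to carcinoma, which share no sample, had a correlation of 0.276, with genes as points that share arrays and scan days. Carcinoma and adenoma differed in 938 genes (3.39%). Of these, 251 were called in the same direction in both comparisons, which was 12.6% of the calls in metastases against disseminated cells and 26.8% of those in carcinoma against adenoma, and 12 were called in opposite directions. The difference between the 2 changes was called for 439 genes, 244 higher and 195 lower for metastases against disseminated cells. Of the 1999 genes, 228 (11.4%) were called in the same direction in that test. They included Ear10 (adjusted p = 0.0085), Adgre4 (0.0092), Msrb1 (0.0109), Nfe2 (0.0168) and Treml4 (0.0408) among the falls, and Ipo7 (0.044) and Bst2 (0.0415) among the rises. The count of 439 was 222 to 284 without metastases 1, 2 or 3 or without disseminated cells 2, 3 or 5, 790 without metastases 4 and 1737 without disseminated cells 6.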

How the data were processed

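The authors hybridized Cy5-labeled sample and Cy3-labeled reference RNA and read the arrays with Agilent Feature Extraction 10.7, per the submitters' processing notes, which also name limma. The deposited spot files hold mean and background intensities of both channels, and the authors also deposited a table of normalized log2 ratios, used here as an alternative. Background was corrected with normexp (offset 50), then each array was normalized by loess and the 22 progression arrays were brought to common quantiles. Spots the scanner software marked as non-uniform or outliers (0.408 to 0.669% per array) were left out, spots of a probe averaged and the probe of highest mean signal kept per gene name.

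limma 3.58.1 in R 4.3.3 fitted 4 groups on 18 residual degrees of freedom, with Benjamini-Hochberg adjustment over 27674 names, of which 19506 have a symbol in RefSeq. Calls needed a change of at least 2-fold and an adjusted p under 0.05. The number of arrays limits the precision. Probe positions are those of the array files (mm7). The code was tested on simulated data.

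Genes, lists and samples to leave out were chosen with earlier results of these data known. Named were the 10 largest rises and falls under the stated conditions, up to 4 called members and 2 further members per list, genes the study follows, and 5 genes with contradicting probes. Members named beyond that, such as Isg15, Tap1, Gbp3, Usp18, Hk1, Ldha, Epcam and Slc16a3, were chosen after their values were seen. No gene met a further rule for genes well above background in 1 group and in no array of the other.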

Additional observations from a re-analysis of the deposited data

Results flagged for a closer look

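Within the groups of 5 and 6 samples, 132 values were checked for a single sample far from the rest, and 9 passed the limit, against 6.6 if chance marks about 1 in 20. All 9 were metastases. Dhx9 was high in metastases 5 (4.40, others 2.81 to 3.14), as was Pigt (-3.06, others -5.12 to -4.68). Metastases 5 was also high in the list means of lung epithelium (2.59, others 1.43 to 1.66), T and NK cells (1.01, others 0.09 to 0.36) and pluripotency genes (0.44, others -0.06 to -0.03). Metastases 2 was low in Plac8 (-2.69, others -0.52 to 0.24) and in the means of monocyte genes (-0.20, others 0.81 to 1.20) and B cell genes (-0.90, others -0.28 to -0.04). Metastases 4 was low in luminal mammary genes (0.43, others 2.41 to 3.22).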

How the results depend on the processing

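No value that passed its test in either setting changed sign. Values that had not passed did, among them the median changes of macrophage genes (from -1.11 to 0.34), MHC class II genes (from -0.47 to 0.48) and inflammatory genes (from -0.41 to 0.56) without metastases 2 and 5, and 22 values of single genes such as Il6 (from -0.64 to 0.18 with the macrophage mean as a covariate). The 1999 called genes became 707 with only the compared groups in the fit, 163 with an equal-variance test without moderation, 1069 at an adjusted p below 0.01, 1262 without disseminated cells 3 and 5 and 1252 without metastases 2 and 5. Leaving out single samples gave 1327 to 3085 calls. The other settings gave 1365 to 2883. Settings without several samples were chosen after seeing the data. The 439 genes called for a change beyond that of carcinoma against adenoma became 48 at an adjusted p below 0.01, 3082 by fold change alone, 161 without disseminated cells 3 and 5, 235 without these and metastases 4, 276 without metastases 2 and 5, and 222 to 1737 with single samples left out. The cause of these shifts was not tested. Across named genes, 452 of the alternative values no longer passed the test, 23 newly passed it, 22 changed sign without a call and 3346 kept their direction and side. Besides genes with that limit given above, calls were lost in 16 of 31 alternatives for Pim1, 15 for Krt19, 14 for Cxcl5 and Fcer1g, 13 for Rsad2, 12 for Setd5 and 11 for Ddit4 and Clec4a2.

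Replicate numbers do not pair these samples: deviations from the group means of same-numbered metastases and disseminated cells correlated at 0.0613, -0.176, -0.0889, -0.416 and -0.347, and 0 of 5 metastases correlated best with their own number. A replicate block gave 2339 calls, and 1109 for the change beyond carcinoma against adenoma. With slide as a random block (correlation 0.0602), 1880 and 568 were called.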
